A study of Mus musculus with 8 samples.

Results

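The 10 genes described here encode apolipoproteins made in liver, the proteins that coat lipoprotein particles or travel on them in plasma. They were chosen by symbol, as Apoa1, Apoa2, Apoa4, Apoa5, Apob, Apoc1, Apoc3, Apoe, Apom and Apoh, and all 10 had a probe set among the 16492 that were tested. Their messenger RNA was measured in livers of Amacr-/- mice (4 arrays) and of wild-type mice (4 arrays), with 1 array for each biological replicate. All animals were male C57BL/6 mice aged 3 to 3.5 months. Amacr encodes alpha-methylacyl-CoA racemase, which acts in the side-chain shortening of bile acid precursors, and the series asked how liver expression differs when it is missing. The labels describe no dietary or drug treatment and do not say which part of the gene was removed.

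Apolipoproteins hold the lipid of a particle in solution, and several also act as ligands of uptake receptors or as activators and inhibitors of plasma enzymes. Apob is the single large structural protein of very low density lipoprotein (VLDL) and low density lipoprotein particles and stays with its particle for life. Apoa1 and Apoa2 are the main proteins of high density lipoprotein (HDL). The smaller proteins exchange between particles, and the liver is the main source of nearly all of them. Cholesterol and bile acids are linked in this organ, since bile acids are made from cholesterol and regulate lipoprotein genes through nuclear receptors.

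Of the 10 genes, 0 passed the threshold of 0.05 on the limma adjusted p, against 0.115% of all probe sets, and 1, Apom, had an unadjusted p under 0.05, against 11.3% of all probe sets. Apom, a carrier of sphingosine-1-phosphate on HDL, had lower values in each Amacr-/- liver than in any wild-type liver. Apoa4, a protein of triglyceride-rich particles and HDL, was spread over a range of 2.21 log2 units among the Amacr-/- livers, against 0.33 among the wild-type livers. The differences of the other 8 genes lay between -0.14 and 0.09 on the log2 scale. The median difference of the 10 genes was 0.02, and that of all probe sets was 0.02.

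The stretches of DNA before the start sites of Apoa4, Apoa1 and Apom are printed here, Apoa4 and Apom because they are the genes that stood out, and Apoa1 because it shares a gene cluster with Apoa4. They are the 250 bases up to the annotated start in RefSeq on build GRCm38.p6, read 5′ to 3′ along each gene. Capitals mark the half-sites that many nuclear receptors of liver, such as Hnf4a, bind in pairs. The search used 4 words of 6 bases on both strands. The first was AGGTCA, the usual form, and the second was its close variant GGGTCA. The third was AGTTCA, another common form, and the last was the related word GGTTCA. No match overlapped another. The Apoa4 window is chr9:46240594-46240843 on the plus strand, the Apoa1 window chr9:46228380-46228629 on the plus strand and the Apom window chr17:35131802-35132051 on the minus strand.
Apoa4: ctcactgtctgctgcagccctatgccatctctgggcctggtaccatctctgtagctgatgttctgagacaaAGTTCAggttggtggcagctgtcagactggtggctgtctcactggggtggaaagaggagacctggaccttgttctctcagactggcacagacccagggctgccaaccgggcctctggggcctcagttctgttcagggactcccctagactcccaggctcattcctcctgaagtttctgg
Apoa1: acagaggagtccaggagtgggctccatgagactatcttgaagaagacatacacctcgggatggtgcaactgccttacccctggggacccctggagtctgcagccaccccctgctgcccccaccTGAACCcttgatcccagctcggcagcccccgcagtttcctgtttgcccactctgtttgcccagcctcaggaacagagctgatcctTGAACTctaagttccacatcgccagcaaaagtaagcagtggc
Apom: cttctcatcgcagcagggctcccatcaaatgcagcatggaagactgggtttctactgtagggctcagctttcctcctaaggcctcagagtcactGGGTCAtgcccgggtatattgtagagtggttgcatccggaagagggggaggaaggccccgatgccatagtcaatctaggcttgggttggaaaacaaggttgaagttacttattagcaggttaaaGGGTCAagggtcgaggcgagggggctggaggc

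The Apom window held the word GGGTCA at 2 places, 156 to 151 and 32 to 27 bases before the start. The Apoa1 window also held 2 half-sites, GGTTCA on the opposite strand at 127 to 122 bases and AGTTCA on the opposite strand at 42 to 37 bases before the start. The Apoa4 window held 1, AGTTCA at 179 to 174 bases before the start. RefSeq windows were at hand for 8 of the 10 genes, Apoc1 and Apoc3 being the others, and of their 12 windows 11 held a half-site. These windows were not all separate. The 2 windows of Apoa5 overlapped and held the same 2 half-sites, and 2 windows of Apoe overlapped as well. Among 32851 windows of the same length, 38.6% held at least 1 half-site and 9.75% held at least 2, so the words are common. A match of letters is a description and not evidence of binding.

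Each value below is the log2 signal of 1 probe set on 1 array, and each difference is Amacr-/- minus wild type on that scale. Signals of different probe sets cannot be compared as transcript levels. Amacr itself had 5.47, 5.39, 5.52 and 5.23 in Amacr-/- livers, against 12.03, 12.05, 12.06 and 11.68 in wild-type livers, so all 8 arrays went with their labels. Array medians lay between 6.62 and 6.66. Amacr-/- replicate 2 stood apart, with an array quality weight of 0.2998 against 0.9349 to 1.753 for the other arrays. Values without it are given beside only some of the results that it moved by over 1.5 times. It also moved small differences of apolipoproteins by over 1.5 times. Without it these were -0.045 for Apoa1, 0.0542 for Apoa2, -0.0142 for Apob, 0.035 for Apoc1 and 0.0417 for Apoh. Their signs were the same as with all arrays. The median difference of the listed apolipoproteins was then 0.0383, against 0.0212 with all arrays. The 6 measured hepatocyte markers, among them Alb, Ttr and Asgr1, averaged 13.96 to 14.04 in Amacr-/- livers and 13.97 to 14.04 in wild-type livers. In bulk tissue, fewer cells of a type and less RNA per cell cannot be told apart.

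Of the family, 6 probe sets sat close to the top of the scale. Apoa1, Apoa2, Apoc1, Apoc3, Apoe and Apoh had means of at least 14, where the highest signal of any probe set on any array was 15.05. In all, 42 probe sets had a mean of at least 14. Their median absolute difference between genotypes was 0.05, against 0.09 for all probe sets, and their median SD among wild-type arrays was 0.04, against 0.11. How far signals near the top compress true differences was not tested. The differences of these 6 genes are differences of signal. The largest absolute difference among the 42 was 0.39, for Mup3, a major urinary protein.

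**Figure D1:**
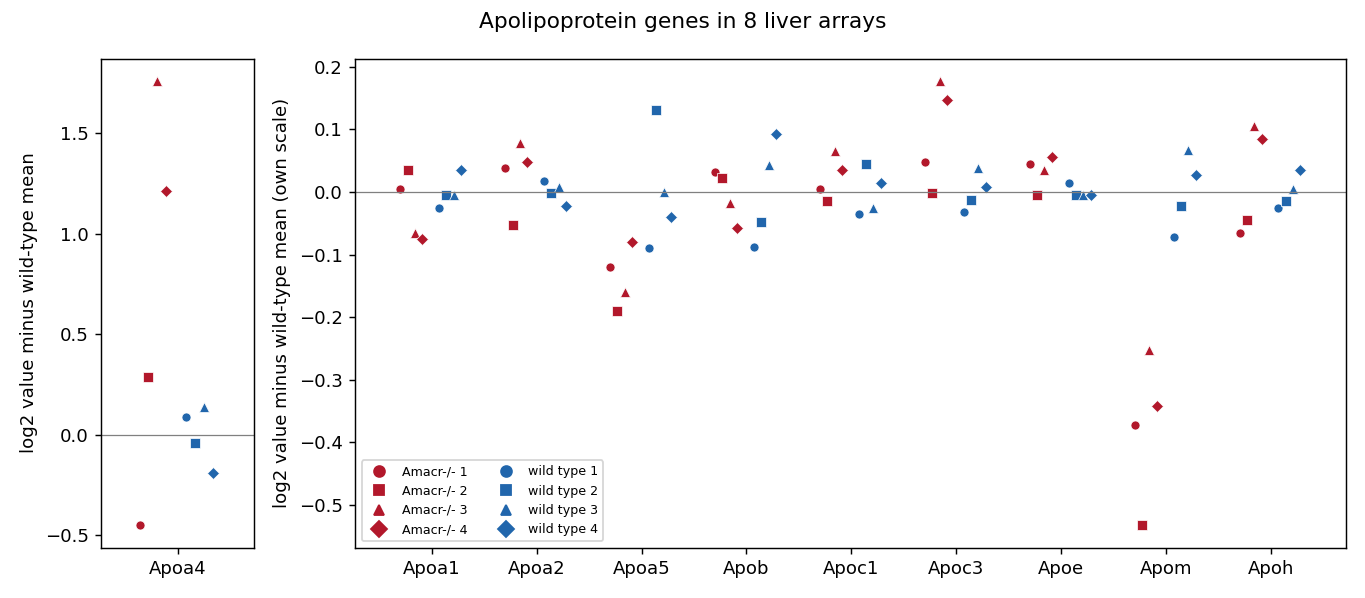
Log2 value of each apolipoprotein gene minus its wild-type mean, for 4 Amacr-/- livers (red) and 4 wild-type livers (blue), with a marker shape for each replicate number; Apoa4 is drawn on a scale of its own. The 4 Amacr-/- values of Apom lie below all 4 wild-type values, and those of Apoa4 lie both above and below them.

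Apob, the backbone of VLDL, did not separate the genotypes. It had 13.14, 13.13, 13.09 and 13.05 in Amacr-/- livers, against 13.02, 13.06, 13.15 and 13.20 in wild-type livers. The Amacr-/- values lay inside the wild-type range. The difference was -0.005 (95% interval -0.15 to 0.14, limma adjusted p = 0.981), which on the signal scale is a fold between 0.901 and 1.10.

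Among the proteins of HDL, Apoa1, which forms the particle and activates lecithin cholesterol acyltransferase, had 14.79, 14.82, 14.72 and 14.71 in Amacr-/- livers, against 14.76, 14.78, 14.78 and 14.82 in wild-type livers. Amacr-/- replicates 3 and 4 were the lowest of the 8 arrays. The difference was -0.03 (95% interval -0.16 to 0.11, limma adjusted p = 0.894). Apoa2, the second main protein of HDL, had 14.84, 14.75, 14.88 and 14.85 in Amacr-/- livers, against 14.82, 14.80, 14.81 and 14.78 in wild-type livers. Its groups overlapped through Amacr-/- replicate 2, the lowest of all arrays, and the difference was 0.03 (95% interval -0.10 to 0.16, limma adjusted p = 0.882).

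Apom had the smallest p of the 10 genes. This member of the lipocalin family keeps its signal peptide, which anchors it in the lipid of HDL, and there it carries sphingosine-1-phosphate. Apom had 12.15, 11.99, 12.27 and 12.18 in Amacr-/- livers, against 12.45, 12.50, 12.59 and 12.55 in wild-type livers. All 4 Amacr-/- values were below all 4 wild-type values, and Amacr-/- replicate 2 was the lowest. The gap between the groups was 0.18, against a range of 0.14 within the wild-type group and of 0.28 within the Amacr-/- group. The means were 12.15 ± 0.12 in Amacr-/- livers and 12.52 ± 0.06 in wild-type livers (SD, n = 4 each). The difference was -0.38 (SE 0.07, 95% interval -0.54 to -0.21), a signal 1.30-fold lower in Amacr-/- livers, and it did not pass the threshold over all probe sets (limma adjusted p = 0.116). In an exact two-sided permutation test, 2 of the 70 possible regroupings were at least as far apart, the fewest that 4 arrays against 4 allow. Groups that do not overlap always give this result, so the test adds nothing to the separation itself. Apom was also picked for the test after its values were seen. Of all probe sets, 6.67% had groups that did not overlap and 3.25% had them with Amacr-/- lower, and 1 of the 10 apolipoproteins was among them. Without Amacr-/- replicate 2 there were 4 of 10, the others being Apoa2, Apoc3 and Apoe with Amacr-/- higher, against 16.1% of all probe sets, and still 0 of 10 passed the threshold. The difference of Apom was then -0.32 (limma adjusted p = 0.0987). Over 17 alternative fits the difference ranged from -0.42 to -0.31 and the limma adjusted p from 0.0725 to 0.318, so it passed the threshold under 0 of them.

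Among the proteins that act on triglyceride-rich particles, Apoa5 raises the activity of lipoprotein lipase in plasma. Apoa5 had 13.47, 13.40, 13.43 and 13.51 in Amacr-/- livers, against 13.50, 13.72, 13.59 and 13.55 in wild-type livers. Amacr-/- replicate 4 and wild-type replicate 1 overlapped by 0.01, the smallest step in the deposited values, and 3 Amacr-/- livers were below all wild-type livers. The difference was -0.14 (SE 0.07, 95% interval -0.29 to 0.02, limma adjusted p = 0.482). Apoc3 inhibits lipoprotein lipase and the uptake of remnants. It had 14.27, 14.22, 14.40 and 14.37 in Amacr-/- livers, against 14.19, 14.21, 14.26 and 14.23 in wild-type livers. In this gene 3 Amacr-/- livers lay above all wild-type livers and replicate 2 lay within them, for a difference of 0.09 (SE 0.06, 95% interval -0.05 to 0.24, limma adjusted p = 0.615). Both genes lie in the same cluster, and the signs of their differences were opposite, but neither passed the threshold.

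Apoc1, which inhibits lipase activity and uptake of remnants, and Apoe, the ligand by which remnants are cleared through receptors of the liver, are neighbours on chromosome 7. Apoc1 had 14.19, 14.17, 14.25 and 14.22 in Amacr-/- livers, against 14.15, 14.23, 14.16 and 14.20 in wild-type livers, a difference of 0.02 (95% interval -0.10 to 0.15, limma adjusted p = 0.905). Apoe had 14.67, 14.62, 14.66 and 14.68 in Amacr-/- livers, against 14.64, 14.62, 14.62 and 14.62 in wild-type livers. Of the Amacr-/- values, 3 were above all wild-type values by at least 0.02, and the difference was 0.03 (95% interval -0.09 to 0.15, limma adjusted p = 0.850). Apoc4, next to Apoc1 on the other side, had a difference of -0.02 (limma adjusted p = 0.902). Macrophages also make Apoe, and all 11 measured markers of Kupffer cells and macrophages had lower means in Amacr-/- livers. Their mean signal ranged from 8.32 to 9.50 in Amacr-/- livers and from 8.86 to 9.90 in wild-type livers, with Amacr-/- replicates 3 and 4 the lowest. Of these markers 0 passed the threshold, and their part in the Apoe signal was not tested.

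Apoh, also called beta-2-glycoprotein I, binds anionic phospholipids and is abundant in plasma. It had 14.08, 14.10, 14.25 and 14.23 in Amacr-/- livers, against 14.12, 14.13, 14.15 and 14.18 in wild-type livers. Amacr-/- replicates 1 and 2 were below all wild-type livers and replicates 3 and 4 above them. The mean difference of 0.02 (95% interval -0.13 to 0.17, limma adjusted p = 0.925) therefore averaged values on both sides of wild type.

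**Figure D2:**
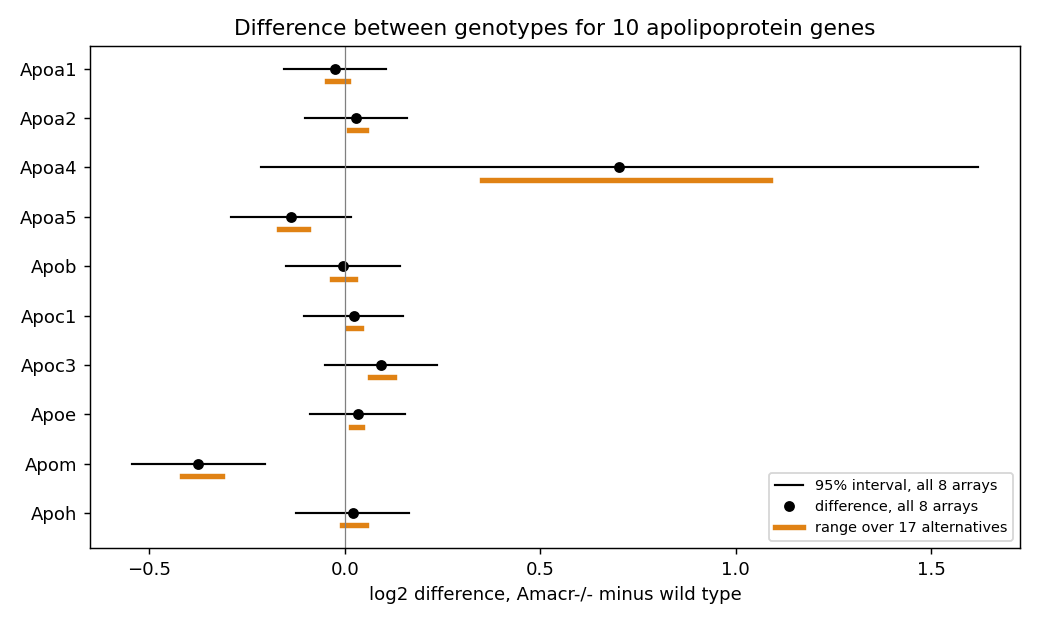
Log2 difference between Amacr-/- and wild-type livers for each apolipoprotein gene (points) with its unadjusted 95% interval (black lines) and the range of the difference over 17 alternative fits (orange bars). The interval of Apom, -0.54 to -0.21, excludes 0 before adjustment, and that of Apoa4, -0.22 to 1.62, is the widest.

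Apoa4 was the most variable of the 10 genes, with an SD over the 8 arrays of 0.75 against 0.03 to 0.22 for the other 9. Apoa4 is made in the intestine and, in mice, also in the liver, where it is carried on VLDL and HDL. It had 9.83, 10.57, 12.04 and 11.49 in Amacr-/- livers, against 10.37, 10.24, 10.42 and 10.09 in wild-type livers. Amacr-/- replicates 2, 3 and 4 were above all wild-type livers, and replicate 1 was below them. The means were 10.98 ± 0.98 in Amacr-/- livers and 10.28 ± 0.15 in wild-type livers (SD, n = 4 each). The difference of 0.70 (SE 0.41, 95% interval -0.22 to 1.62, limma adjusted p = 0.551) did not exceed this spread, and an exact two-sided permutation test gave p = 0.286. Without Amacr-/- replicate 1 the groups did not overlap and the difference was 1.09 (limma adjusted p = 0.267), whereas without Amacr-/- replicate 3 it was 0.35 (limma adjusted p = 0.772). A range of at least 2.21 among the Amacr-/- arrays was seen for 0.734% of all probe sets.

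The neighbours of Apoa4 had narrower ranges. Apoa1, Apoc3, Apoa4 and Apoa5 follow each other on chromosome 9 with no other protein-coding gene between them. Among the Amacr-/- livers, the range was 2.21 for Apoa4, 0.11 for Apoa1, 0.18 for Apoc3 and 0.11 for Apoa5. Signals of Apoa1 and Apoc3 were near the top of the scale, which limits this comparison for them. Apoa5, at 13.40 to 13.72, and Apoa4 lay below 14 throughout. Over the whole array the SD was larger in Amacr-/- than in wild-type livers for 66.7% of probe sets, and this held for 7 of the 10 apolipoproteins.

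Amacr-/- replicates 3 and 4 also ranked highest for some other genes of the family, by far smaller amounts than for Apoa4. Their values above the wild-type mean were 1.76 and 1.21 for Apoa4, but 0.1775 and 0.1475 for Apoc3. For Apoh they were 0.105 and 0.085, and for Apoa2 0.0775 and 0.0475. In Apoa2, replicate 4 had 14.85 and replicate 1 had 14.84. Amacr-/- replicates 3 and 4 were the highest of the 8 arrays for Apoa2, Apoa4, Apoc3 and Apoh, 4 of 10 genes, against 14.6% of all probe sets. They were the lowest for Apoa1, 1 of 10 genes, against 8.81% of all probe sets. These counts describe the arrays and were made after the values were seen, and the 4 include Apoa4, which prompted them. Of 8 markers of the exocrine pancreas, 7 had higher means in Amacr-/- livers and 0 passed the threshold. Their mean was 7.82 in Amacr-/- replicate 1, in which Apoa4 was lowest, against 5.70 to 6.14 in the other Amacr-/- livers and 5.89 to 6.09 in wild-type livers, and their part in the Apoa4 values was not tested. Markers of the enterocyte, the other main source of Apoa4, averaged 5.82 to 6.01 in Amacr-/- livers and 5.84 to 5.97 in wild-type livers over 6 genes, with Amacr-/- replicates 1 and 4 the highest of the Amacr-/- livers.

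Of 15260 other named probe sets, those whose deviations from their own mean over the 8 arrays were closest to those of Apoa4 were Ifi202b, Trhde, Acad10, Tex12 and Prxl2b. The mean absolute difference of deviations was 0.17 log2 units for Ifi202b, an interferon-inducible gene, and 0.25 to 0.27 for the other 4. Ifi202b had 3.74, 3.82, 5.37 and 5.04 in Amacr-/- livers, against 3.75, 3.93, 3.85 and 3.69 in wild-type livers. Trhde had 3.96, 3.67, 4.03 and 3.68 in wild-type livers. These signals were low, since array medians were 6.62 to 6.66 and the lowest value on any array was 2.74. Acad10, which encodes a member of the acyl-CoA dehydrogenase family, had 8.30, 8.44, 9.68 and 8.80 in Amacr-/- livers, against 7.87, 7.88, 7.63 and 7.66 in wild-type livers. Acad10 alone of the 5 had all Amacr-/- values above all wild-type values, and its difference was 1.05 (limma adjusted p = 0.179). The likeness rests on 8 arrays and mainly on Amacr-/- replicates 3 and 4.

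**Figure D3:**
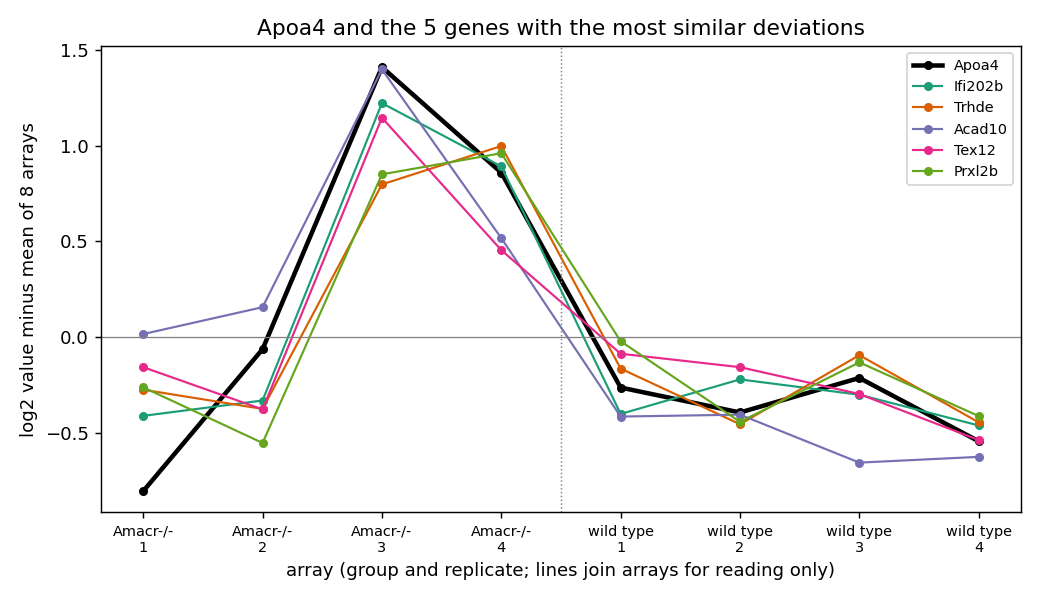
Log2 value minus the mean of the 8 arrays for Apoa4 (black) and the 5 genes whose deviations were closest to it, in 4 Amacr-/- livers (left of the dotted line) and 4 wild-type livers. All 6 genes have their highest values in Amacr-/- replicates 3 and 4, and the wild-type livers lie close together.

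Creb3l3, a transcription factor of hepatocytes that activates Apoa4 in mice, was looked at after the values were seen. It had 11.35, 11.21, 11.93 and 11.72 in Amacr-/- livers, against 11.47, 11.48, 11.46 and 11.37 in wild-type livers. Creb3l3 was highest in Amacr-/- replicates 3 and 4, as were Apoa4 and 14.6% of all probe sets. In Amacr-/- replicate 2 it was the lowest of the 8 arrays, whereas Apoa4 was above all wild-type livers there. The mean difference of Creb3l3 was 0.11 (limma adjusted p = 0.818), and its part in the Apoa4 values was not tested. Mttp, which loads lipid onto Apob, had 10.63, 10.47, 10.97 and 11.01 in Amacr-/- livers, against 10.81, 10.87, 10.79 and 10.79 in wild-type livers. As for Creb3l3, Amacr-/- replicates 3 and 4 were above all wild-type livers and replicates 1 and 2 below them, and the difference was -0.05 (limma adjusted p = 0.912).

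Other genes of the family and its surroundings were grouped in 7 lists. Of 16 other apolipoprotein-related genes, 0 passed the threshold in either direction by limma, with a median difference of -0.03. For 1 of them the unadjusted p was under 0.05, against 11.3% of all probe sets. Apod, a lipocalin, had 6.05, 5.65, 5.98 and 6.12 in Amacr-/- livers, against 5.80, 5.50, 5.77 and 5.62 in wild-type livers, a difference of 0.28 (limma adjusted p = 0.410). Apol7a had a difference of -0.21 (limma adjusted p = 0.525), Apol11b of -0.16 (0.529) and Naxe, which binds Apoa1 and repairs NADHX, of 0.14 (0.532). Apof, in humans an inhibitor of lipid transfer, differed by -0.08, and Clu and Pon1, proteins found on HDL, by -0.01 and -0.05.

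Of 19 genes of the assembly and secretion of Apob particles, 0 passed the threshold in either direction by limma, with a median of -0.06. For 1 of them the unadjusted p was under 0.05, against 11.3% of all probe sets. That gene was Dgat2, which makes the triglyceride loaded into VLDL. Dgat2 had 11.51, 11.46, 12.04 and 12.03 in Amacr-/- livers, against 12.27, 12.15, 12.13 and 12.06 in wild-type livers. All Amacr-/- values were below all wild-type values, replicates 3 and 4 by no more than 0.03, and the difference was -0.39 (limma adjusted p = 0.354). Such a separation was seen for 1 of the 19 genes, against 3.25% of all probe sets. The carboxylesterases Ces1g and Ces1d differed by 0.24 and -0.24 with overlapping groups. Single arrays moved both, to 0.13 without Amacr-/- replicate 1 and 0.37 without Amacr-/- replicate 3 for Ces1g, and to -0.13 without Amacr-/- replicate 2 and -0.11 without wild-type replicate 1 for Ces1d. Aup1, which takes part in the breakdown of Apob, differed by -0.09. Apobec1, which edits Apob messenger RNA, had a difference of -0.13 (limma adjusted p = 0.718).

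Of 10 genes of HDL loading and maturation, 0 passed the threshold in either direction by limma, with a median of -0.02. For 3 of them the unadjusted p was under 0.05, against 11.3% of all probe sets. Scarb1, the HDL receptor that takes up cholesterol esters, had 10.93, 10.69, 11.01 and 10.77 in Amacr-/- livers, against 10.59, 10.59, 10.68 and 10.53 in wild-type livers. Pdzk1, the scaffold that keeps that receptor at the surface of hepatocytes, had 9.06, 9.03, 9.08 and 9.14 in Amacr-/- livers, against 9.43, 9.31, 9.35 and 9.18 in wild-type livers. Both genes separated the genotypes, in opposite directions, with differences of 0.25 for Scarb1 (limma adjusted p = 0.313) and -0.24 for Pdzk1 (limma adjusted p = 0.252). Bmp1 of this list also had all Amacr-/- values, 7.76 to 7.89, below all wild-type values, 7.90 to 7.99. Its difference was -0.115 (limma adjusted p = 0.518). Of the 10 genes, 1 had all Amacr-/- values higher and 2 had them lower, against 6.67% of all probe sets in either direction. Abcg8, a subunit of the sterol exporter into bile, differed by 0.32 (limma adjusted p = 0.345) and Lipg, endothelial lipase, by -0.49 (limma adjusted p = 0.450), with groups that overlapped. Without wild-type replicate 2 the difference of Lipg was -0.26. Lcat, the enzyme activated by Apoa1, differed by 0.03 (limma adjusted p = 0.910).

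Of 9 genes of plasma lipase control, 0 passed the threshold in either direction by limma, with a median of 0.08. For 1 of them the unadjusted p was under 0.05, against 11.3% of all probe sets. Angptl8, a hormone of liver and fat that takes part in the inhibition of lipoprotein lipase, had 9.0, 9.03, 7.84 and 8.78 in Amacr-/- livers, against 9.93, 10.74, 9.41 and 9.55 in wild-type livers. All Amacr-/- values were below all wild-type values, and the difference was -1.25 (limma adjusted p = 0.211). This separation held for 1 of the 9 genes, against 3.25% of all probe sets. Lpl, lipoprotein lipase, had 9.60, 11.50, 9.43 and 7.69 in Amacr-/- livers, against 7.91, 8.49, 7.71 and 8.70 in wild-type livers, so the highest and the lowest of the 8 arrays were both Amacr-/- livers. Its difference was 1.35 (SE 0.66, limma adjusted p = 0.481), and 0.70 without Amacr-/- replicate 2. Pcsk5, a convertase of lipases, differed by 0.16 (limma adjusted p = 0.551), and by 0.10 without wild-type replicate 4.

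Of 11 receptors and uptake genes, 0 passed the threshold in either direction by limma, with a median of -0.01. For 1 of them, Scarb1, the unadjusted p was under 0.05, against 11.3% of all probe sets. Sorl1, a sorting receptor, differed by 0.43 (limma adjusted p = 0.450), Vldlr, the VLDL receptor, by -0.49 (0.523) and Cubn, an endocytic receptor, by 0.17 (0.562), all with overlapping groups. Each moved with 1 array, Sorl1 to 0.28 without Amacr-/- replicate 3, Vldlr to -0.18 without wild-type replicate 1 and Cubn to 0.26 without Amacr-/- replicate 2. Lrp1, which takes up remnants that carry Apoe, differed by -0.08 (limma adjusted p = 0.743).

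Among 27 transcription regulators of apolipoprotein genes, 0 passed the threshold in either direction by limma. An unadjusted p under 0.05 was found for 8, against 11.3% of all probe sets. Their median difference was -0.20 against 0.02 for all probe sets, and 21 of 27 had lower means in Amacr-/- livers. All Amacr-/- values lay below all wild-type values for 6 of 27, against 3.25% of all probe sets. The list was chosen with earlier results of these data known, so these counts describe it and test nothing. The 4 with the smallest p were Ppara, a fatty acid receptor that represses Apoc3 in rodents, with a difference of -0.63 (limma adjusted p = 0.116), Nr1h4, the bile acid receptor, with -0.49 (0.136), Srebf1 with -0.77 (0.173) and Mlxipl, a glucose-responsive factor, with -0.32 (0.186). Hnf4a, an activator of many apolipoprotein genes, had 10.71, 10.51, 10.81 and 10.88 in Amacr-/- livers, against 10.95, 10.95, 10.93 and 10.79 in wild-type livers, a difference of -0.18 (limma adjusted p = 0.492). Nr5a2, an activator of Apom, had 10.07, 9.90, 10.86 and 10.71 in Amacr-/- livers, against 10.30, 9.92, 10.12 and 9.99 in wild-type livers. Its groups overlapped, the difference was 0.30 (limma adjusted p = 0.616), and its part in the Apom values was not tested.

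Of 19 other secreted hepatocyte proteins, 0 passed the threshold in either direction by limma, with a median of -0.04. For 1 of them the unadjusted p was under 0.05, against 11.3% of all probe sets. Itih4, an acute phase protein, had a difference of -0.26 (limma adjusted p = 0.312), Vtn, vitronectin, of -0.11 (0.518), Ahsg, fetuin-A, of -0.10 (0.551) and F2, prothrombin, of -0.08 (0.620). Alb, albumin, differed by -0.04 (limma adjusted p = 0.823). All Amacr-/- values lay below all wild-type values for 3 of the 19, Itih4, Ahsg and F2, against 3.25% of all probe sets, and above them for 0. The differences in this list, like those of most of the apolipoproteins, were small, and 14 of the 19 probe sets had a mean of at least 14.

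**Figure D4:**
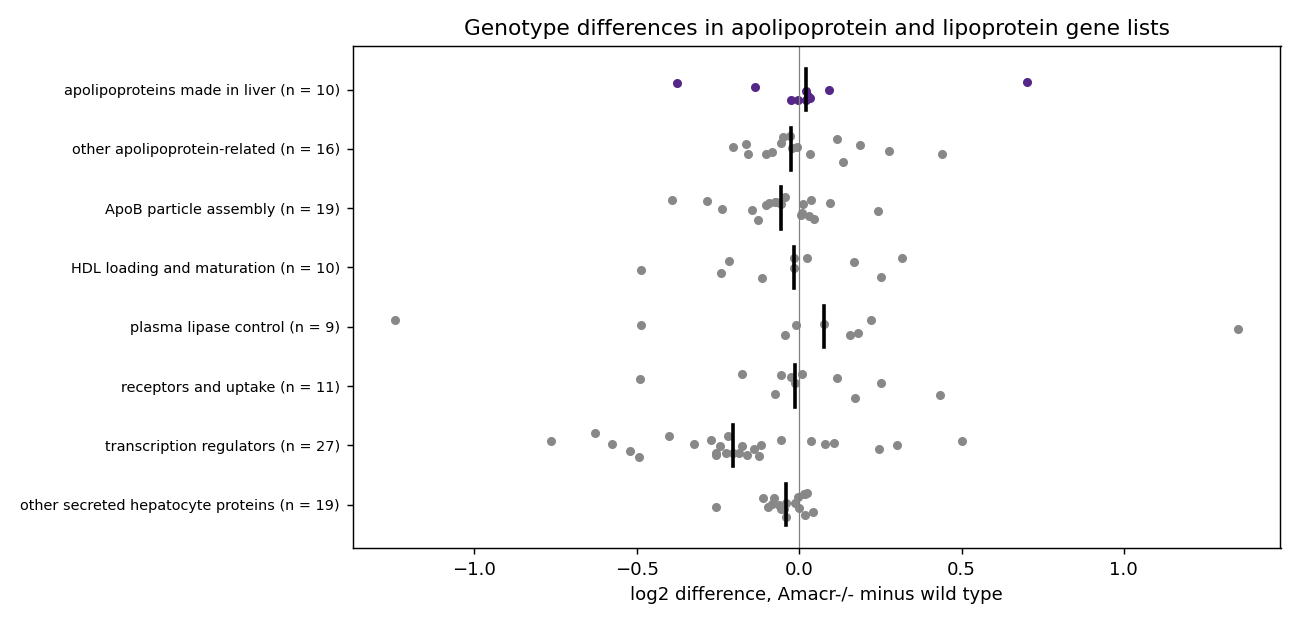
Log2 difference between Amacr-/- and wild-type livers for each gene (points) of the apolipoproteins made in liver and of 7 related lists, with the median of each as a black bar. The medians lie between -0.20, for the transcription regulators, and 0.08, for plasma lipase control, and 0 genes of any list passed the threshold.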

How the data were processed

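Liver RNA from 4 Amacr-/- and 4 wild-type mice was hybridised to 1 array each. The deposited table holds log2 values, 1 per probe set, with 2 decimals. Per the submitters' processing notes the authors used RMA, with no version stated; filters and batch steps are not given in the sources used here. Of 16556 rows, 64 array controls were left out. Entrez numbers linked each of the 15270 named probe sets to RefSeq (GRCm38.p6), the source of names, gene order and promoter windows. The test was limma 3.58.1 under R 4.3.3, with genotype alone in the model, an untrended eBayes prior and Benjamini-Hochberg adjustment over 16492 probe sets. Every adjusted p is from this fit unless an alternative is named. The fit was tested on simulated data.

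The 10 apolipoproteins and the lists were chosen with earlier results of these data known. The text names each apolipoprotein, every gene past the threshold and the 4 smallest p of each list, and the 5 genes most like the most variable apolipoprotein; any other gene was picked with its values in view. The number of arrays limits the precision. Alternatives were array controls kept, a trended or robust prior, array weights, 2 other scalings, a filter on low values, a replicate block and leaving out arrays. The labels do not say that the replicate numbers pair animals, so the main fit used no pairing.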

Additional observations from a re-analysis of the deposited data

Results flagged for a closer look

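Apoe in wild-type replicate 1 was 14.64, against 14.62 in each of the other 3 wild-type livers, a gap that is the whole range of the group. The gap is 0.02 in values deposited with 2 decimals. Since the other 3 values were equal at 2 decimals, any different value in replicate 1 would give such a gap. Among 82 groups of 4 arrays examined, 1 stood out in this way, a smaller share than the 1 in 20 or so that chance gives.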

How the results depend on the processing

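Of 608 differences computed for 36 named genes over 17 alternative fits, 601 kept their direction and their side of the threshold. The exceptions were differences near 0. That of Apoa1 was 0.007 with quantile normalization. That of Apob was 0.0167 without Amacr-/- replicate 2 and wild-type replicate 4 together, an alternative chosen after seeing the data, and ranged from -0.0342 to 0.0258 when single arrays were left out. That of Apoh ranged from -0.0083 to 0.0483 when single arrays were left out. None of the 10 apolipoproteins and 0 genes of the 7 lists passed under any of the 17. The median of the 10 genes was 0.0417 without both arrays named above, and 0.004 to 0.038 without single arrays.

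The number of apolipoproteins whose groups did not overlap was 2, Apoa5 and Apom, with array medians subtracted (6.69% of all probe sets) and with quantile normalization (7.44%). It was 1 to 4 without single arrays. The 4 came without Amacr-/- replicate 2 and were Apoa2, Apoc3, Apoe and Apom (16.1% of all probe sets), and the same 4 came without both arrays (23.9%). Without Amacr-/- replicate 1 they were Apoa4 and Apom (10.1% of all probe sets), and they were Apoa5 and Apom without Amacr-/- replicate 4 (9.27%) or wild-type replicate 1 (8.99%).

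The count of all probe sets past the threshold, 19, was 75 with array weights, 38 with quantile normalization, 39 without both arrays, 1 with the replicate block and 2 to 39 without single arrays; the cause was not tested. For each array, the deviation of each probe set from the mean of its genotype was taken. Between same-numbered Amacr-/- and wild-type arrays, these deviations correlated at 0.05, -0.027, 0.092 and -0.115. Low correlations cannot settle whether the numbers pair animals, and the labels do not say that they do. Under the replicate block the difference of Apom was -0.38 (limma adjusted p = 0.2185), and it passed neither there nor elsewhere. The table holds no measure of background, so signal over background was not tested.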
